A study of Mus musculus with 6 samples.

Results

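Focal adhesion and podosome components are the proteins that gather on the inner face of integrins and tie them to the actin skeleton. A set of 34 mouse genes for such proteins was chosen by name, from talin and vinculin to the TKS scaffolds of podosomes, and all 34 symbols were among the 16108 genes listed in the deposited expression values. Their transcripts were compared in RAW264.7 cells, a macrophage-like mouse cell line, by RNA-seq after 48 h on acoustic devices. Cells of the third passage were seeded as a droplet of 250 μl, left overnight to attach, and then kept for 48 h with the acoustics off (3 libraries) or with the acoustics on at 18 V peak to peak and 5 kHz (3 libraries). Both groups were grown on the device; a group on petri dishes was not analysed here. Whether the libraries of a group came from separate cultures is not stated in the labels, so each p-value reflects only how much these samples varied, and that variation may be technical.

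At a focal adhesion, talin and kindlin bind the tails of integrins, vinculin and alpha-actinin join talin to actin, and paxillin, focal adhesion kinase (FAK) and p130Cas carry signals from the site to small GTPases. Macrophages, osteoclasts and dendritic cells mostly build podosomes in place of large focal adhesions: dots of branched actin ringed by the same adaptor proteins, at which the cell probes and digests its substrate. Blood cells rely on their own members of several families, such as kindlin-3, parvin gamma and the FAK relative PYK2.

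Values were in FPKM, fragment counts scaled to transcript length and library size, so levels can be compared between genes. The steps of the low values placed the libraries at about 43838000 to 46103000 counts over the listed genes. The cells expressed 9 of 9 macrophage markers above the filter described next, with summed levels of 27192 to 29363 FPKM with acoustics off and 18826 to 26065 with acoustics on, most of it from the lysozyme gene Lyz2. The summed markers listed for epithelial, endothelial, T and B cells stayed at or below 0.192 FPKM in every library, and the 6 fibroblast markers listed summed to 1.91 to 3.90 FPKM. The 4 osteoclast markers listed (Acp5, Ctsk, Dcstamp and Ocstamp) summed to 26.7 to 33.9 FPKM with acoustics off and 46.2 to 61.9 with acoustics on, and the 3 dendritic cell markers to 15.2 to 25.4 and 38.0 to 61.8. The higher dendritic sum was from Itgax alone, which averaged 17.9 and 45.2 FPKM, while Zbtb46 averaged 1.9 and 1.63 and Ccr7 0.053 and 0.0084. The part of these markers in the results below was not tested. In bulk RNA, fewer cells of a type and less RNA per cell cannot be told apart. Acoustics-on replicate 1 stood apart from the other libraries: its score on principal component 1, which held 64.4% of the variance, was 58.8, while the other acoustics-on libraries scored 2.54 and 4.66 and the acoustics-off libraries between -23.5 and -19.8.

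None of the adhesion genes passed the test between groups. A gene was tested where it had at least 0.5 FPKM in at least 3 libraries, which 31 of the 34 did, and it was called where the adjusted p of limma on log2(FPKM + 1) was under 0.05. By this rule 0 of the 31 genes were called, against 2.07% of the 11664 genes tested (1.5% higher and 0.574% lower). At an unadjusted p under 0.05 there were 9 of the 31, of which 8 were lower with acoustics on (Tns1, Zyx, Pak2, Pxn, Dock1, Sh3pxd2b, Vcl and Git2) and 1 was higher (Ptk2b). Over all genes tested, 19.7% had such a p, 9.16% on the lower side and 10.5% on the higher side. Among the 8, Tns1 passed the filter only through the acoustics-off libraries, so it could enter only on the lower side. In the authors' deposited table, which rests on counts and DESeq2, 3 of the 34 genes were lower at an adjusted p under 0.05 (Tns1, Zyx and Pak2) and 1 was higher (Ptk2b), where 7.56% of the genes with an adjusted p were called. Without acoustics-on replicate 1, limma called 5 of the 31, with Ptk2b higher and Zyx, Pxn, Pak2 and Dock1 lower, where 7.44% of all genes were called. With all libraries kept and weighted by their spread, it called 8 (Ptk2b and Lims1 higher; Vcl, Pxn, Zyx, Pak2, Dock1 and Sh3pxd2b lower), where 16.1% of all genes were called.

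The 3 libraries of each group did not overlap for 12 of the 31 genes, 9 of them lower and 3 higher with acoustics on, beside 34.8% of all genes tested (17.7% lower and 17.1% higher). The 9 include Tns1, which the filter could admit only on the lower side. The median log2 difference of the 31 genes was -0.11, with the middle of the list between -0.45 and 0.15, beside a median of -0.03 over all genes tested. With a length trend divided out, as described further on, it was 0.0053. Differences are given throughout as acoustics on minus off on the log2(FPKM + 1) scale, on which changes of scarce transcripts appear smaller than they are. For 25 of the 31 genes the 95% interval of the difference lay within 1 log2 unit on either side of 0, and the median distance from the estimate to the end of its interval was 0.39. A missed threshold therefore bounds these differences and does not show that the levels were equal.

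**Figure D1:**
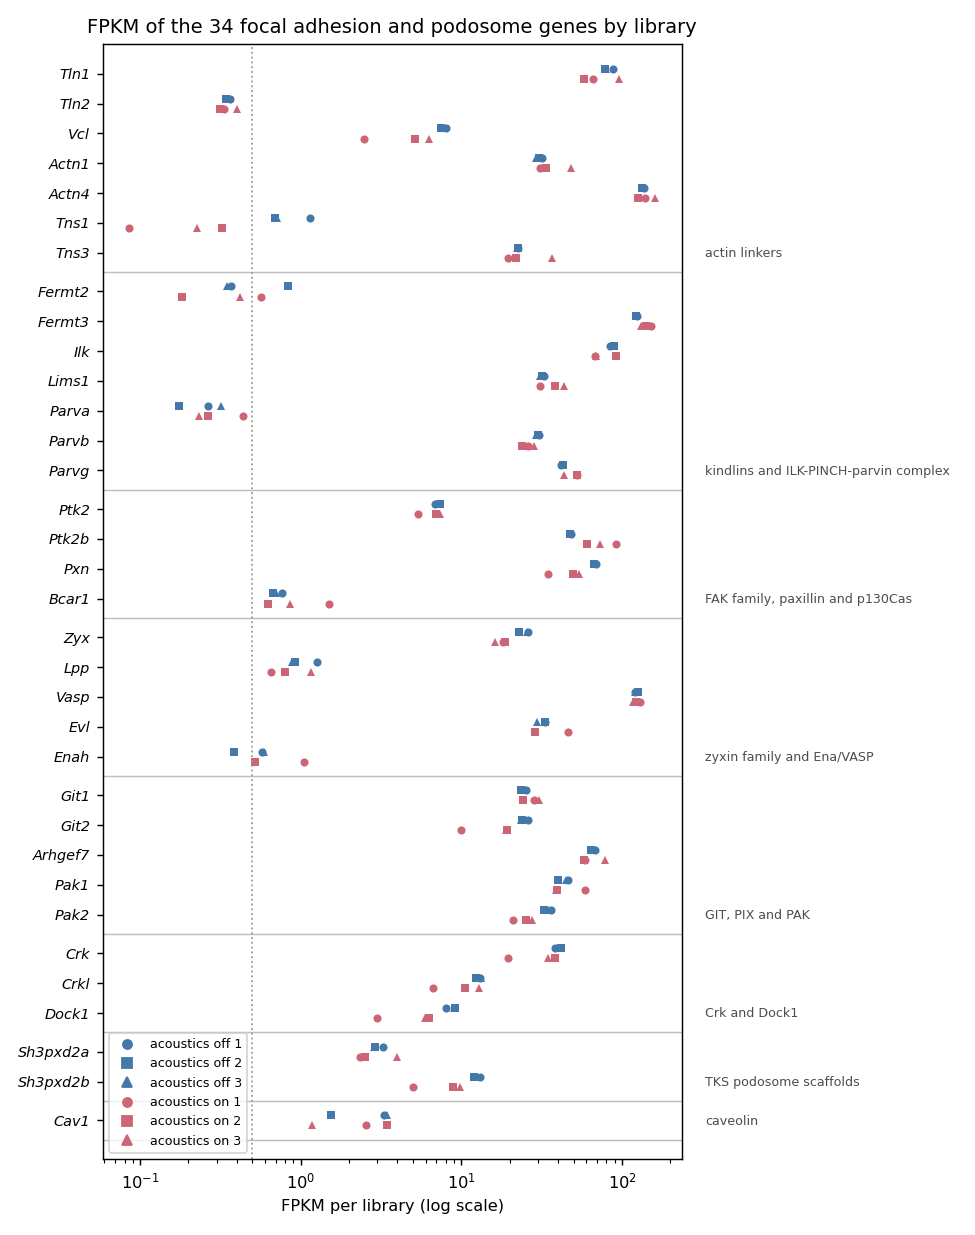
FPKM of the 34 focal adhesion and podosome genes in each library on a log scale, blue for acoustics off and red for acoustics on, with the marker shape giving the replicate and the dotted line the 0.5 FPKM of the filter. The acoustics-off libraries lie close together for most genes, while the acoustics-on libraries spread more widely, as for Vcl, from 2.46 to 6.26 FPKM.

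Among the proteins that link integrins to actin, the most abundant transcripts were those of alpha-actinin 4 and talin 1. Actn4, which encodes an actin crosslinker, averaged 135.2 ± 1.4 FPKM in the acoustics-off group and 141.9 ± 17.8 in the acoustics-on group (SD, n = 3), and its log2 difference was 0.06 (95% interval -0.26 to 0.38, limma adjusted p = 0.80). Tln1, which encodes the talin that opens integrins from inside the cell, was at 88.2, 77.8 and 79.4 FPKM with acoustics off and 65.9, 58.2 and 95.7 with acoustics on. Its acoustics-on values lay on both sides of the acoustics-off values (log2 difference -0.19, 95% interval -0.65 to 0.28), and the difference changed sign with the length trend divided out (0.26). Actn1 (30.6 ± 1.33 and 37.5 ± 9.25 FPKM) and the tensin gene Tns3 (22.5 ± 0.24 and 26.0 ± 9.34 FPKM) also had their highest value in acoustics-on replicate 3, at 48.1 and 36.8 FPKM, and the groups of both overlapped. Tln2 stayed between 0.31 and 0.40 FPKM in the 6 libraries and was below the filter.

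Vinculin and tensin 1 lay lower in each acoustics-on library. Vcl (chromosome 14, 20929398 to 21033676, GRCm38), whose protein locks onto stretched talin, was at 8.08, 7.49 and 7.60 FPKM with acoustics off and 2.46, 5.11 and 6.26 with acoustics on. The groups did not overlap, but acoustics-on replicate 1 was far below the other 2, and the difference of -0.70 (SE 0.27) did not pass (adjusted p = 0.22). It was -0.39 without that library and -0.45 with the length trend divided out. Of the annotated exonic bases of Vcl, 25.5% are shared with Ap3m1 on the opposite strand, and whether counting used the strand is not given in the sources used here, so reads of the 2 genes may not be separated. Tns1 (chromosome 1, 73910231 to 74124449), which encodes an adaptor between integrin tails and actin, was at 1.14, 0.69 and 0.71 FPKM with acoustics off and 0.09, 0.32 and 0.22 with acoustics on. Its acoustics-on mean was 0.250 of the acoustics-off mean, and its log2 difference was -0.60 (SE 0.14, adjusted p = 0.091), the smallest adjusted p among the 31 genes. Tns1 passed the filter only through the acoustics-off libraries, so it could enter the test only by being high there, and without any 1 acoustics-off library it was not tested. The authors' deposited table gives it a mean of 87.0 normalised counts, a depth at which counting error is 10.7% of the mean, and a log2 fold change of -2.0 (adjusted p = 0.0017).

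The kindlins and the ILK-PINCH-parvin complex, which sit on the integrin tail beside talin, had differences of at most 0.23 log2 units in either direction. Fermt3, which encodes the kindlin of blood cells, was at 124.6, 122.9 and 122.7 FPKM with acoustics off and 151.9, 141.1 and 131.7 with acoustics on. The groups did not overlap, and the difference was 0.19 (95% interval -0.09 to 0.48, adjusted p = 0.38). Ilk, whose protein is the pseudokinase at the centre of the complex, averaged 87.4 ± 2.87 and 76.4 ± 13.6 FPKM (adjusted p = 0.45). Its value is uncertain, because 76.8% of its annotated exonic bases are shared with Taf10 on the opposite strand, which itself averaged 160.6 FPKM over the 6 libraries. Lims1, the gene of the adaptor PINCH1, averaged 31.7 ± 1.06 and 37.6 ± 6.53 FPKM, with 30.8 in acoustics-on replicate 1 and 38.4 and 43.8 in replicates 2 and 3 (log2 difference 0.23, adjusted p = 0.41). With the length trend divided out, Lims1 passed (log2 difference 0.47, adjusted p = 0.031). It did not pass with length and GC divided out, or with a replicate block beside the length trend.

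The parvins couple the complex to actin. Parvb was at 30.5, 30.1 and 29.1 FPKM with acoustics off and 26.0, 23.8 and 28.2 with acoustics on (difference -0.20, adjusted p = 0.36). Parvg, the parvin of blood cells, was at 41.9, 43.0 and 42.7 FPKM and at 52.6, 52.7 and 43.3 FPKM (difference 0.21, adjusted p = 0.36). Neither pair of groups overlapped, and both intervals held 0. With the length trend divided out the Parvb difference was -0.00086, and with length and GC it was -0.12. Parva, at 0.18 to 0.43 FPKM, and Fermt2, at 0.18 to 0.83 FPKM, were below the filter.

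The FAK family and paxillin had members on opposite sides of 0. Ptk2b (chromosome 14, 66153257 to 66281052), which encodes PYK2, a calcium-responsive relative of FAK that organises podosomes in macrophages and osteoclasts, was at 48.2, 47.4 and 47.7 FPKM with acoustics off and 91.3, 60.3 and 72.5 with acoustics on. Each acoustics-on library lay above all acoustics-off libraries, by a mean ratio of 1.56. The log2 difference was 0.61 (SE 0.17, 95% interval 0.22 to 1.00), and it did not pass (adjusted p = 0.12). In the authors' deposited table the log2 fold change was 0.64 (adjusted p = 0.022). Ptk2, the FAK gene itself, averaged 7.10 ± 0.28 and 6.54 ± 1.01 FPKM, and its difference of -0.11 (95% interval -0.45 to 0.23) changed sign with the length trend divided out (0.12).

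Pxn (chromosome 5, 115506676 to 115555987) encodes paxillin, the scaffold to which both kinases bind. It was at 68.4, 67.0 and 67.1 FPKM with acoustics off and 34.4, 49.5 and 54.1 with acoustics on, so that all acoustics-on values lay below the acoustics-off values, and most so in replicate 1, where Ptk2b was highest. The difference was -0.57 (SE 0.18, adjusted p = 0.17), and -0.38 without acoustics-on replicate 1, where it passed (adjusted p = 0.035). Bcar1, which encodes p130Cas, a docking protein whose folding responds to stretch, was scarce at 0.63 to 1.5 FPKM, with its highest value in acoustics-on replicate 1 (adjusted p = 0.51).

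Zyxin lay lower by a similar amount in each acoustics-on library. Zyx (chromosome 6, 42349630 to 42360213), which encodes a LIM protein recruited to adhesions and actin fibres under tension, was at 26.0, 22.9 and 25.8 FPKM with acoustics off and 18.2, 18.7 and 16.2 with acoustics on. The groups did not overlap, and the acoustics-on libraries lay 0.43, 0.39 and 0.59 log2 units below the acoustics-off mean. The difference of -0.47 (SE 0.12) did not pass (limma adjusted p = 0.11). It passed with the length trend divided out (-0.53, adjusted p = 0.036) and without acoustics-on replicate 1 (-0.49, adjusted p = 0.037). In the authors' deposited table it passed too (-0.49, adjusted p = 0.021). It did not pass in limma with length and GC divided out (adjusted p = 0.064), on the TPM scale (0.17), with median centring (0.18) or with a replicate block (0.25). Without acoustics-on replicate 2 or 3 the adjusted p was 0.13 and 0.11. Without any 1 acoustics-off library, Zyx had an adjusted p of 0.33 to 0.47. Its relative Lpp stayed between 0.65 and 1.27 FPKM. The Ena/VASP proteins, which zyxin recruits to lengthen actin filaments, did not share this pattern of values: Vasp averaged 122.1 ± 3.20 and 122.8 ± 6.41 FPKM, with a difference of 0.0077 (95% interval -0.27 to 0.28). Evl had 46.0 FPKM in acoustics-on replicate 1 and 28.6 to 33.3 in the other 5 libraries, and Enah stayed between 0.38 and 1.05 FPKM.

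The GIT, PIX and PAK proteins form a complex that paxillin brings to adhesions to switch on Rac and Cdc42. Pak2 (chromosome 16, 32016290 to 32079342), a kinase driven by these GTPases, was at 35.9, 32.6 and 35.0 FPKM with acoustics off and 20.9, 25.3 and 27.5 with acoustics on. The groups did not overlap, and the difference was -0.48 (SE 0.14, adjusted p = 0.14). It shrank to -0.15 with the length trend divided out (adjusted p = 0.50), while the authors' deposited table gives -0.49 (adjusted p = 0.0498). Git2 (chromosome 5, 114727407 to 114775517), one of the scaffolds that bind paxillin, was at 25.8, 23.8 and 23.4 FPKM and at 9.97, 19.2 and 19.0 FPKM. Here too the groups did not overlap, with the lowest value in acoustics-on replicate 1 (difference -0.62, SE 0.25, adjusted p = 0.23; -0.33 without it). Its paralog Git1 averaged 24.4 ± 0.90 and 27.6 ± 3.30 FPKM, Arhgef7, the gene of the exchange factor beta-PIX, 65.9 ± 1.70 and 65.1 ± 11.3, and Pak1 43.6 ± 3.01 and 45.8 ± 11.3. The groups of all 3 overlapped.

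Crk adaptors bind phosphorylated paxillin and p130Cas and bring the exchange factor DOCK180, the product of Dock1, which activates Rac. Dock1 (chromosome 7, 134670654 to 135173639) was at 8.07, 9.08 and 8.97 FPKM with acoustics off and 2.97, 6.30 and 5.94 with acoustics on. This was the lowest difference of the 31 genes, -0.73 (SE 0.24, adjusted p = 0.19), and it was -0.45 without acoustics-on replicate 1, where it passed (adjusted p = 0.043), and -0.41 with the length trend divided out. Crk averaged 40.6 ± 1.97 and 30.8 ± 9.94 FPKM and Crkl 12.9 ± 0.51 and 10.0 ± 3.13. In both, acoustics-on replicate 1 was lowest (19.6 and 6.63 FPKM), and the groups overlapped.

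The TKS proteins mark podosomes and invadopodia, where they hold the machinery for matrix digestion. Sh3pxd2b (chromosome 11, 32347820 to 32428173), the gene of TKS4, was at 13.1, 12.0 and 12.1 FPKM with acoustics off and 4.97, 8.88 and 9.84 with acoustics on. The groups did not overlap, and the difference was -0.64 (SE 0.23, adjusted p = 0.21), with -0.37 without acoustics-on replicate 1 and -0.26 with the length trend divided out. Sh3pxd2a, the gene of TKS5, averaged 3.01 ± 0.21 and 2.93 ± 0.88 FPKM, with the highest value of 3.95 in acoustics-on replicate 3. Cav1, which encodes the coat protein of caveolae, varied within both groups, from 1.55 to 3.44 FPKM with acoustics off and from 1.18 to 3.46 with acoustics on (adjusted p = 0.77).

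**Figure D2:**
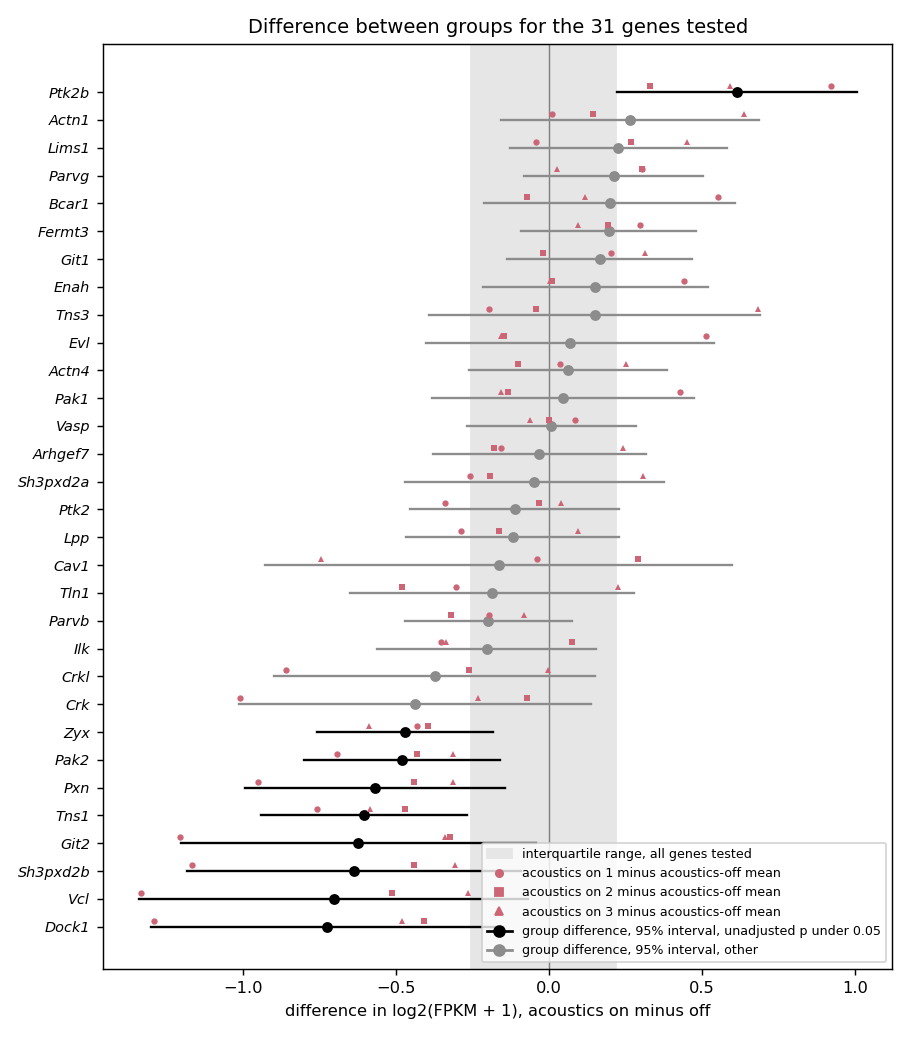
Difference between groups in log2(FPKM + 1), acoustics on minus off, for the 31 genes tested, with 95% intervals from limma and, in red, each acoustics-on library minus the acoustics-off mean. The grey band is the middle range of all genes tested, from -0.26 to 0.22. On the lower side 8 genes and on the higher side Ptk2b have an unadjusted p under 0.05, and 0 pass after adjustment. The 8 include Tns1, which passed the filter only through the acoustics-off libraries.

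For the genes at an unadjusted p under 0.05 whose promoter is in the RefSeq table used here, the 250 bases before the start that RefSeq lists are printed so that the sequences of genes with like differences can be compared. They are from GRCm38.p6 and run 5′ to 3′ on the gene's strand, in lower case, with matches to the motifs searched in capitals.
Tns1 (chr1:74124549-74124798, minus strand): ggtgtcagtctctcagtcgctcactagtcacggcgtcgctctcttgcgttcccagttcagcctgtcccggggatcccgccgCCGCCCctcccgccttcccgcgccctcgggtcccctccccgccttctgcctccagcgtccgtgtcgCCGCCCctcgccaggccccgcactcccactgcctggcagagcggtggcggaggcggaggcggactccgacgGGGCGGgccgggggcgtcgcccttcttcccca
Zyx (chr6:42349578-42349827, plus strand): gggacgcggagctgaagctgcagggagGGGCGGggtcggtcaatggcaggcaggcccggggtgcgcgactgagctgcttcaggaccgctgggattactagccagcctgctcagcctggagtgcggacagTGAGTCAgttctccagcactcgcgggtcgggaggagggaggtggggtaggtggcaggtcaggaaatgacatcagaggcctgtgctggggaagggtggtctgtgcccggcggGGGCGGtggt
Dock1 (chr7:134670437-134670686, plus strand): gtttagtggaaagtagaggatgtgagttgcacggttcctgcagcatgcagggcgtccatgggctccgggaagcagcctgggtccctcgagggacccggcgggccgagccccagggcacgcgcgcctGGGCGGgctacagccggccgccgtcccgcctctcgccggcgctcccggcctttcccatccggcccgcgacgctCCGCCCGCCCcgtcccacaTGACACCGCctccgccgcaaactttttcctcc
Sh3pxd2b (chr11:32347590-32347839, plus strand): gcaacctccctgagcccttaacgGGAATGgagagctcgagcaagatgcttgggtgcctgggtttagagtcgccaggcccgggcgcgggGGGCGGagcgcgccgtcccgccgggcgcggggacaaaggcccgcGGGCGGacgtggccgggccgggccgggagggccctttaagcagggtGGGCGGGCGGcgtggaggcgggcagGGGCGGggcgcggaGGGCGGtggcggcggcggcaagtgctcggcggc
Vcl (chr14:20929148-20929397, plus strand): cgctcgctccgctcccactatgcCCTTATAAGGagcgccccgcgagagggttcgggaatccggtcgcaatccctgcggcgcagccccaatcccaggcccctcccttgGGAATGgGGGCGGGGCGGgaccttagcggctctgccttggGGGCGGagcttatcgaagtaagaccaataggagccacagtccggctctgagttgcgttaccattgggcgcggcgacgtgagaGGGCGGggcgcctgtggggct
Git2 (chr5:114773493-114773742, minus strand): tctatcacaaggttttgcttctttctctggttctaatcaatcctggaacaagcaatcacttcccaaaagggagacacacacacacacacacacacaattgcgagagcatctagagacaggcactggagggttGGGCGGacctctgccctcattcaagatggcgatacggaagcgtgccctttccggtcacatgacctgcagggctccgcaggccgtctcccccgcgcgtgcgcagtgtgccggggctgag
All 6 genes were on the lower side with acoustics on. The gene spans given above are from GENCODE, and the 2 annotations place some starts differently. RefSeq lists 2 starts for Git2, and only the first listed was used for its window. That start lies 2025 bases inside the GENCODE span of Git2, and the start of Zyx 198 bases inside its own. The window of Git2 therefore lies inside the span given, and that of Zyx runs across the start of its span. For Dock1 and Sh3pxd2b the start lies 33 and 20 bases inside, for Vcl the starts coincide, and for Tns1 the window is wholly outside the span. Distances below are from the RefSeq start. The motifs were the CArG box of serum response factor, the GC box GGGCGG, the MCAT box GGAATG of TEAD factors, the AP-1 element TGACTCA and the antioxidant element core TGACNNNGC of NRF2, each searched on both strands, and overlapping matches were counted separately.

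All 6 windows printed held a GC box, which 32.7% of the 32851 promoters in the table hold. Vcl alone of the 6 held a CArG box, which reads the same on both strands, at 227 to 218 bases before the start; 1.47% of all promoters hold one. Vcl and Sh3pxd2b held an MCAT box (12.6% of all promoters), Zyx held the AP-1 element on the other strand, 121 to 115 bases before the start (4.46%), and Dock1 held the antioxidant core 32 to 24 bases before the start (10.2%). Of the 34 genes, 27 had at least 1 promoter listed, and 22 of these 27 held a GC box, 2 a CArG box (Vcl and Fermt2), 5 an MCAT box, 1 the AP-1 element and 5 the antioxidant core. The GC box was thus present for 81.5% of the 27 genes and for 35.4% of all symbols in the table. The latter share was not limited to expressed genes or to promoters of like GC content, and the 6 windows printed are 56.4% to 77.6% G and C. It therefore cannot tell whether adhesion genes differ from other expressed genes. A match is a string of letters in this window and says nothing of whether a factor binds there.

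Several of the genes are paralogs, and FPKM allows their shares to be compared within a library. Tln1, the widely expressed talin, held 99.5% to 99.6% of the talin sum. Of the members typical of blood cells, Fermt3 held at least 99.3% of the kindlin sum and Ptk2b 86.5% to 94.4% of the sum with Ptk2. The share of Ptk2b was 87.1% ± 0.53 with acoustics off and 91.7% ± 2.46 with acoustics on, without overlap. The share of Parvg among the parvins was 58.5% ± 0.79 and 65.2% ± 4.33, also without overlap. The difference of Parvb, in the same sum, was -0.00086 with the length trend divided out. Git2 made up 49.9% ± 1.14 of the GIT sum with acoustics off and 36.3% ± 9.35 with acoustics on, and its difference of -13.6 points became -8.51 without acoustics-on replicate 1.

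Sh3pxd2a, the less abundant of the TKS pair, held 19.5% ± 0.37 and 27.6% ± 5.12 of their sum. Tns3 held 96.4% ± 1.0 and 99.2% ± 0.55 of the tensin sum, and Pak1 55.8% ± 0.50 and 64.4% ± 8.17 of the PAK sum. The rest of the tensin sum is Tns1, which was scarce and passed the filter only through the acoustics-off libraries. The Pak1 difference of 8.65 points was 3.98 without acoustics-on replicate 1 and 2.58 with the length trend divided out. In these 6 of the 11 families the groups did not overlap, beside 34.8% of the single genes tested. The latter share is for levels of single genes and not for ratios, so it is not a like background. Each of the 6 families also holds a gene whose own groups did not overlap, so these shares partly restate the values above. An exact two-sided permutation test over 3 against 3 libraries cannot go below p = 0.10, which these 6 reached, and the adjusted value over the 11 families was 0.18, so no share passed.

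**Figure D3:**
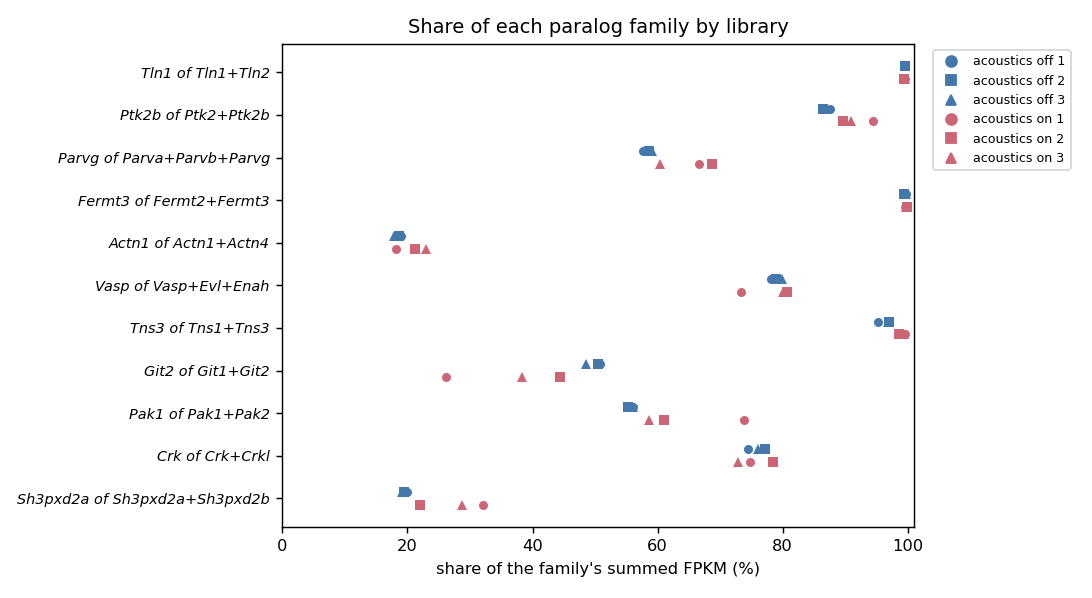
Share of the summed FPKM of each paralog family held by the named gene, in percent, for each library (blue, acoustics off; red, acoustics on; marker shape, replicate). Git2 lies lower in all acoustics-on libraries, from 26.1% to 44.5%, and Ptk2b, Parvg, Tns3, Pak1 and Sh3pxd2a lie higher.

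These genes are long, and acoustics-on replicates 1 and 2 carried a trend with length across all genes. The part of this trend in the differences above was not tested. The median length of the 31 genes, taken from the ratio of the mean count in the authors' deposited table to FPKM and scaled to annotated transcripts, was 4582 bases, beside 2730 for all genes tested. In acoustics-on replicate 1 the rank correlation across all genes between length and the difference from the acoustics-off mean was -0.55, in replicate 2 it was -0.40 and in replicate 3 it was 0.07. Over the 31 genes it was -0.46, -0.47 and 0.30. Genes of 1 library share that library and are not independent, so these are descriptions.

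Set against the median of all genes in the same length decile, the adhesion genes lay on both sides. Their median difference from the acoustics-off mean was -0.20 in acoustics-on replicate 1, where genes of like length had -0.35, and -0.13 in replicate 2, where genes of like length had -0.10. In replicate 3 the values were -0.0028 and 0.0025. Relative to genes of like length, 10 of the 31 lay below in all 3 acoustics-on libraries, 10 lay above in all 3, and 11 were mixed. Of all genes tested, 26.1% lay below and 25.9% above in all 3. The 8 genes named for an unadjusted p on the lower side were picked for low values in these same libraries, so their place among the 10 below (with Crkl and Ilk) partly restates that choice, and Pak2 was at -0.0014 in replicate 1. Ptk2b, likewise chosen for its values here, was among those above, by 1.27, 0.42 and 0.59 log2 units, together with Lims1, Actn1, Tns3, Fermt3, Parvg, Git1, Sh3pxd2a, Ptk2 and Lpp. Zyx lay 0.50, 0.44 and 0.59 log2 units below genes of its length in acoustics-on replicates 1, 2 and 3.

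A loess trend on length was also divided out of each library. In that fit 2 of the 31 genes passed, Lims1 higher and Zyx lower, where 5.23% of all genes were called. With length and GC divided out 0 passed, where 258 genes were higher and 224 lower over all genes. With the length trend and a replicate block 0 passed, where these counts were 165 and 61. With only the length trend divided out and acoustics-on replicate 1 left out, 6 passed, where 12.4% of all genes were called. Ptk2b, Lims1 and Tns3 were higher and Zyx, Pxn and Git2 lower.

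**Figure D4:**
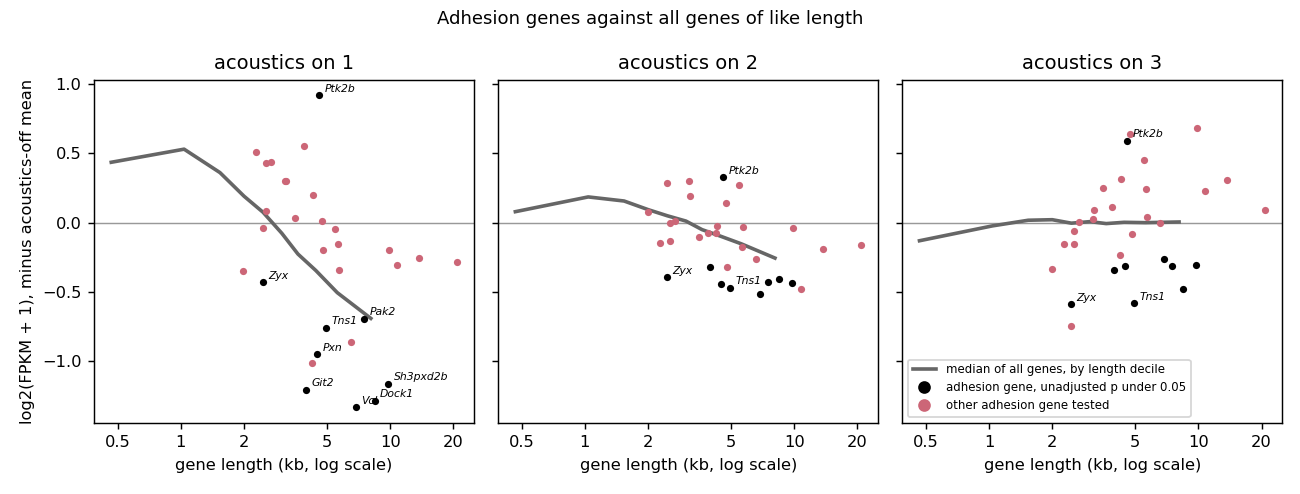
Difference of each acoustics-on library from the acoustics-off mean in log2(FPKM + 1) against gene length in kilobases on a log scale, with the median of all genes by length decile as a grey line, black points for adhesion genes at an unadjusted p under 0.05 and red points for the other adhesion genes tested. The grey line goes from 0.44 in the shortest decile to -0.69 in the longest in acoustics-on replicate 1 and is nearly flat in replicate 3, while Ptk2b lies above it and Zyx and Tns1 below it in each panel.

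The other genes of the adhesion pathway were described from 4 lists. Over all genes tested, 1.5% were called higher and 0.574% lower. Of 36 further adaptors, 29 were tested, and 1 rose and 0 fell. The riser was Tes, the gene of the LIM protein testin, which binds zyxin and actin. It was at 19.9, 23.2 and 22 FPKM with acoustics off and 51.4, 36.5 and 45.9 with acoustics on. Its log2 difference was 1.00 (SE 0.15, adjusted p = 0.029). Of 21 Src family kinases and phosphatases, 20 were tested and, beside the same shares of all genes, 1 rose and 0 fell. It was Src itself, the tyrosine kinase that works with FAK and PYK2 at podosomes, at 6.14, 6.98 and 5.61 FPKM with acoustics off and 14.6, 10.6 and 17.4 with acoustics on. Its log2 difference was 1.05 (SE 0.19, adjusted p = 0.049). All acoustics-on libraries of both genes lay above all acoustics-off libraries.

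In both other lists limma called 0 genes, beside 2.07% of all genes tested. Of 26 integrin subunits, 13 were tested, with 6 higher and 3 lower at an unadjusted p under 0.05, or 69.2% of those tested, beside 19.7% of all genes. Among the 6, Itgb4 passed the filter only through the acoustics-on libraries and could enter only by being high there. The smallest p was that of the laminin-binding subunit gene Itga6, at 5.05, 4.45 and 4.82 FPKM with acoustics off and 1.22, 2.62 and 1.97 with acoustics on (log2 difference -1.0, adjusted p = 0.058). Of 39 genes of the podosome core and actin assembly, 38 were tested, with 4 higher and 2 lower at that p, or 15.8%. The smallest was that of Mmp14, which encodes the membrane-bound metalloproteinase of podosomes and invadopodia, at 1.4, 1.67 and 1.47 FPKM with acoustics off and 2.67, 4.07 and 5.01 with acoustics on (log2 difference 0.94, adjusted p = 0.070).

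The medians of the 4 lists lay between -0.16 (the further adaptors) and 0.13 (the integrin subunits), beside -0.11 for the adhesion genes above and -0.03 for all genes tested. In the authors' deposited table, 11 genes of the 4 lists were higher and 2 lower among the 113 with an adjusted p, where 7.56% of all genes were called. Without acoustics-on replicate 1, limma called 8 higher and 5 lower, where 7.44% of all genes were called. Without acoustics-on replicate 3 or any 1 acoustics-off library, it called 0.

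**Figure D5:**
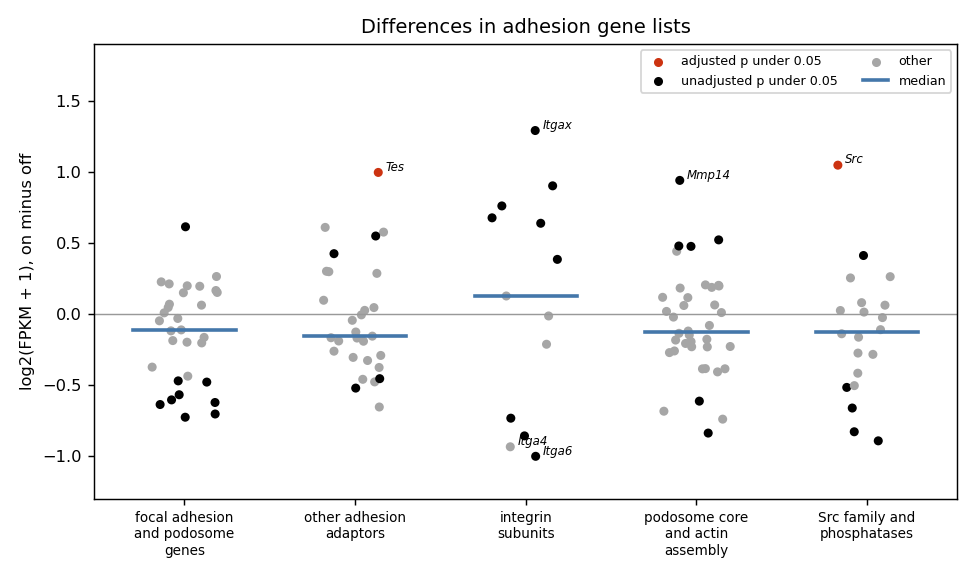
Difference in log2(FPKM + 1), acoustics on minus off, for each tested gene of the focal adhesion and podosome set and of 4 further adhesion lists, with a blue bar at each median. Tes and Src are the 2 genes at an adjusted p under 0.05, at 1.00 and 1.05, while the integrin subunits have the widest middle range.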

How the data were processed

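RNA was depleted of ribosomal RNA by kit, per the labels' protocols, although the molecule field says polyA RNA. The submitters' processing notes name the authors' tools as DESeq2 1.38.2, Salmon 1.4.0, STAR 2.7.11 and Trim Galore 0.6.8, and the build as GRCm38; step order, settings and strandedness were not given in the sources used here. Expression was deposited as FPKM, 1 value for each gene in each library. A table of the authors' own comparison, also deposited, holds a mean normalised count (a signal), a log2 fold change, its standard error, a Wald score and p-values; 1586 adjusted p-values were missing and were left so. A count test had been planned only where counts were given.

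Here limma 3.58.1 (R 4.3.3) was run on log2(FPKM + 1) with a trended, robust prior, no replicate term and Benjamini-Hochberg adjustment over all 11664 genes tested. On data simulated for this comparison (5 draws, 11463 genes on average, 200 changed) it recovered 56.2% of the genes set 1 log2 unit apart and 88.2% of those set 2 apart, with 3.86% of calls false. The simulated noise was independent between genes and had the same spread in both groups. It held no outlying acoustics-on replicate 1, no wider acoustics-on spread and no length trend, so these rates need not hold for the real libraries. Low values came within 0.05 of whole counts for 58.8% to 66.9% of values (6.59% to 7.18% at other steps), so counts were not recovered. Length trends were loess fits (span 0.5). Coordinates came from GENCODE M21 (GRCm38). The 34 genes, and the lists and tests, were chosen with earlier results of these data known. Genes were described in full where groups did not overlap with an absolute log2 difference of at least 0.5 or, for a role with none, at the highest level; Zyx, Pak2 and the remaining genes were added after their values were seen. From each further list up to 4 called genes, or else the one with the smallest p, were named; 1 further list is not reported here.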

Additional observations from a re-analysis of the deposited data

How the results depend on the processing

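The direction and the threshold side of the 9 genes at an unadjusted p under 0.05 were compared over the alternatives below, and none of the 9 changed sign. The number of adhesion genes at such a p of limma was less stable. It was 3 on the TPM scale and 5, 4 and 4 without acoustics-off replicate 1, 2 or 3. It was 11 without acoustics-on replicate 1, 12 with the length trend divided out and 15 with library weights. Over all genes tested, 19.7% had such a p in the main fit. That share is not given here for the other settings, so these counts cannot be set against it. At an adjusted p under 0.05 over all genes, 175 were higher and 67 lower. With no filter these were 116 and 34, with at least 1 FPKM in all libraries 116 and 36, with quantile normalization 209 and 111, on the TPM scale 148 and 32, with library weights 1098 and 784, with the length trend divided out 348 and 261, with length and GC divided out 258 and 224, and in the authors' deposited comparison 737 and 361. With the length trend divided out and without acoustics-on replicate 1 they were 682 and 738. Leaving out 1 library gave 14 to 498 higher and 3 to 357 lower. Of the 31 adhesion genes, leaving out 1 library gave 0 to 1 higher and 0 to 4 lower, library weights 2 and 6, the length trend 1 and 1, the length trend without acoustics-on replicate 1 gave 3 and 3, and the authors' deposited comparison gave 1 and 3. Length and GC divided out gave 0 higher and 0 lower adhesion genes, as did the length trend with a replicate block. limma's default weight estimate did not converge, and its gene-by-gene form was used. The median of the adhesion genes was 0.0053 with the length trend divided out (also with the replicate block), and 0.027 with length and GC; leaving out 1 library it ranged from -0.17 to -0.025. Of the further lists, 2 genes were higher and 0 lower; these counts were 0 and 0 with no filter or a replicate block, 1 and 0 with the stricter filter or the TPM scale, 4 and 1 with median centring, 4 and 2 with quantile normalization, 15 and 9 with library weights, 7 and 2 with the length trend, 6 and 2 with length and GC, 14 and 9 with the length trend without acoustics-on replicate 1, and 11 and 2 in the authors' deposited table. Leaving out 1 library gave 0 to 8 higher and 0 to 5 lower. The cause of these shifts was not tested.

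The titles share replicate numbers between the groups. The correlations of same-numbered libraries' deviations from their group means were -0.073, -0.020 and -0.0039. Those of differently numbered libraries ran from -0.12 to 0.12. The 3 deviations of a group sum to 0, so these values cannot tell whether the samples were paired. With the replicate block, 133 genes were higher and 46 lower, and 0 adhesion genes passed.

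The differences of some genes changed sign under some settings. With the length trend, with or without the replicate block, they were 0.26 for Tln1, 0.12 for Ptk2, 0.20 for Lpp, 0.22 for Arhgef7, 0.34 for Sh3pxd2a, -0.034 for Vasp and -0.014 for Evl. With length and GC they were 0.13, 0.034, 0.13, 0.16, 0.25, -0.12 and -0.062 for the same genes. With the length trend and without acoustics-on replicate 1 they were 0.027, 0.073, 0.087, 0.11, 0.20, -0.085 and -0.23, with -0.20 for Pak1 and -0.0079 for Enah. With median centring, Arhgef7 was at 0.031 and Sh3pxd2a at 0.014. With quantile normalization Vasp was at -0.092, Actn4 at -0.041 and Pak1 at -0.013, and on the TPM scale Vasp was at -0.0093. With library weights Vasp was at -0.0067, Actn4 at -0.039, Bcar1 at -0.012, Pak1 at -0.11, Cav1 at 0.11 and Evl at -0.11. Leaving out 1 library, the ranges were -0.19 to 0.0019 for Ptk2, -0.031 to 0.043 for Vasp, -0.033 to 0.14 for Actn4, -0.12 to 0.32 for Tns3, -0.17 to 0.042 for Arhgef7, -0.15 to 0.15 for Pak1, -0.42 to 0.13 for Cav1, -0.15 to 0.18 for Evl and -0.23 to 0.057 for Sh3pxd2a. The scarce genes Tln2, Parva and Fermt2 were below the filter. The authors' deposited table gives them means of 125.2, 32.947 and 50.813 normalised counts. The part of depth in their values was not tested.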
